A study of Mus musculus with 180 samples.

Results

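The 7 genes described belong to cholesterol synthesis and its control and were chosen by name, with earlier results of these data known. Hmgcs1, Idi1, Fdft1, Sqle and Lss encode enzymes, and Srebf2 and Insig1 encode regulators. All 7 were found among the 54429 genes counted. RNA was sequenced from the brains of 30 male mice, a study of the hippocampus by its title, that carried the T29-1Stl/J Camk2a-cre transgene, of a B6.Cg line, crossed to B6N.129-Rpl22tm1.1Psam/J; the age is not in the labels. In this cross Cre recombinase, driven by the Camk2a promoter, switches on an HA-tagged copy of the ribosomal protein Rpl22, so the tag follows wherever Cre has been active. Each mouse gave 6 libraries. The tissue was split into a membrane fraction (the pellet) and a cytosolic fraction (the supernatant). From each came a pS6 library, captured with an antibody to phosphorylated S6, a mark of active neurons; a Camk2a library, captured by the HA tag; and an Input library with no capture. All mice came from this cross and fell into 4 groups: contextual fear conditioning then sleep deprivation (CFC SD, 7 mice), conditioning then sleep (CFC Sleep, 8), no conditioning with sleep deprivation (NoCFC SD, 7) and no conditioning with sleep (NoCFC Sleep, 8). The length of the deprivation is not in the labels.

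Cells make cholesterol from acetyl-CoA through mevalonate, farnesyl pyrophosphate, squalene and lanosterol. Hmgcs1 makes HMG-CoA, an early intermediate; Idi1 isomerises isopentenyl pyrophosphate; Fdft1 makes squalene; Sqle oxidises squalene; and Lss closes the rings to lanosterol. Srebf2 encodes SREBP-2, a transcription factor held in the endoplasmic reticulum until sterols fall, when SCAP carries it to the Golgi for cleavage and its released part switches on the synthesis genes. Insig1 encodes the membrane protein that keeps SCAP and SREBP in the reticulum when sterols are plentiful, and Insig1 is itself a target of SREBP. Cholesterol does not cross the blood-brain barrier to any great extent, so the brain makes its own, with astrocytes and oligodendrocytes as major producers.

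SREBP binds sterol regulatory elements in the promoters of its targets, usually beside CCAAT boxes or GC boxes bound by other factors. RefSeq promoter windows on GRCm38.p6, from 250 bases before to 50 after the annotated start, were matched for 5 of the 7 genes (Hmgcs1, Idi1, Lss, Srebf2 and Insig1). Both strands were searched for the element's core TCACNCCAC, a shorter form TCACNCCA that lies within it and was added after the windows had been read, CCAAT and GGGCGG. The core was in 1 of the 5 windows, that of Hmgcs1, and in 1.24% of the 32851 windows in the table. The shorter form was in 2 of the 5 (Hmgcs1 and Srebf2) and in 4.36% of all windows, starting 137 bases before the Hmgcs1 start and 162 bases before the Srebf2 start. CCAAT was in 5 of 5 and in 37.4% of all, and GGGCGG in 5 of 5 and in 35.7% of all. These matches are letters in a window and not measured binding. In the GENCODE vM21 annotation of GRCm38 the 7 genes lie at chr13:119690379-119708260 (Hmgcs1), chr13:8885501-8892451 (Idi1), chr14:63145150-63179578 (Fdft1, minus strand), chr15:59315077-59331192 (Sqle), chr10:76531588-76557138 (Lss), chr15:82147181-82205379 (Srebf2) and chr5:28071363-28078662 (Insig1), on the plus strand where not stated. The windows of both genes with the short form are shown, with that of Insig1, the gene with the largest membrane excess of the 7 in pS6 and Camk2a, given below. Capitals mark TCACNCCA and CCAAT, with CCAAT read as ATTGG on the printed strand. The 3 windows lie on the plus strand: Hmgcs1 at chr13:119690101-119690400, Srebf2 at chr15:82147019-82147318 and Insig1 at chr5:28071162-28071461.
Hmgcs1: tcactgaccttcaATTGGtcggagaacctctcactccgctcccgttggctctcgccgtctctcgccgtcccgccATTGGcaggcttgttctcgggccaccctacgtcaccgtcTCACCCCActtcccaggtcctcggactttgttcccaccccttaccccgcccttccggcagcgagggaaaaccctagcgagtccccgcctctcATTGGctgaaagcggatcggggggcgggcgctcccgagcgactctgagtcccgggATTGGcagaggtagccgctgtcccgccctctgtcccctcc
Srebf2: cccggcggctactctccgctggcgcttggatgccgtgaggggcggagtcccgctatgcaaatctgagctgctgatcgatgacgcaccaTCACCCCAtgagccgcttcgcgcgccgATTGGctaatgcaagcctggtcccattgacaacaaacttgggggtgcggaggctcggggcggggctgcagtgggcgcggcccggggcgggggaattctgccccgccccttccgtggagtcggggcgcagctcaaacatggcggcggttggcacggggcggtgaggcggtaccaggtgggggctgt
Insig1: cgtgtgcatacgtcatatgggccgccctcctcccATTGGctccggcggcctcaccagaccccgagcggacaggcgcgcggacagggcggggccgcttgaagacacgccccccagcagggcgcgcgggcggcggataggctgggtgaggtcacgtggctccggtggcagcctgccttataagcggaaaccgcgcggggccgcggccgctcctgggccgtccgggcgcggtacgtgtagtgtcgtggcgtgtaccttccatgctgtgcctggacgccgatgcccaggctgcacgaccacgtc

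Depth was 12 to 27 M counts (M, units of 1000000 counts), on average 18.8 ± 3.03 M (SD, n = 180 libraries). The captures were checked against cell type markers, each of which had counts in every library type. The summed level of 7 excitatory neuron markers had medians of 9480 counts per 1000000 (CPM) in membrane pS6, 12400 in membrane Camk2a and 7920 in membrane Input. That of 9 inhibitory neuron markers was 1690 CPM in membrane pS6, 534 in membrane Camk2a and 1290 in membrane Input. That of 10 astrocyte markers was 5380, 2730 and 7400 CPM in the same order, and in the cytosolic types 645, 273 and 1490 CPM. The Camk2a libraries were thus poorest in glial and inhibitory markers but not free of them, and the pS6 libraries held both. In libraries of whole tissue or of captured ribosomes, fewer cells of a type and less RNA per cell cannot be told apart. Mouse numbers 1 to 11 were all NoCFC and 12 to 22 all CFC, while 23 to 30 held 2 mice of each group, so training and number run coincide in the first 22 mice. In 5 libraries the median correlation with the other libraries of the type lay at least 0.01 below the type's median. These were membrane Input of mice 22 and 30 (CFC SD) and 16 (CFC Sleep), at 0.959, 0.973 and 0.967 beside a type median of 0.989, membrane pS6 of mouse 19 (CFC SD), at 0.964 beside 0.98, and cytosolic Input of mouse 6 (NoCFC Sleep), at 0.971 beside 0.99. The comparisons that hold them were refitted without them, a choice made after the data were seen, and a value is given where a call changed or a result rests on them.

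The 7 genes spanned a wide range of levels, with Srebf2 and Hmgcs1 at the top and Lss and Idi1 at the bottom in all 6 library types. Levels are given per kilobase of all annotated exons, as CPM per kb scaled over the 180 libraries, mean ± SD over 30 mice. In membrane Camk2a, Srebf2 stood at 62.6 ± 6.26, Hmgcs1 at 38.6 ± 4.29, Fdft1 at 21.1 ± 1.66 and Sqle at 17.5 ± 2.06 CPM per kb. Insig1 followed at 15 ± 2.34, Lss at 1.48 ± 0.19 and Idi1 at 0.749 ± 0.171 CPM per kb in those libraries. Neighbours from Fdft1 to Insig1 in this order lay within their summed SDs of each other, whereas Srebf2, Hmgcs1 and Fdft1 were apart.

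In cytosolic Camk2a the top 3 closed up, at 25.4 ± 1.56 CPM per kb for Srebf2, 24.1 ± 2.6 for Hmgcs1 and 22.3 ± 1.47 for Fdft1, each neighbour within the summed SDs of the next. Sqle (7.9 ± 0.684), Insig1 (5.48 ± 0.733), Idi1 (1.31 ± 0.17) and Lss (1.2 ± 0.158 CPM per kb) came after. In membrane pS6 the order was Srebf2 (38.1 ± 3.11), Hmgcs1 (34.7 ± 3.65), Sqle (24.6 ± 3.87), Insig1 (19.8 ± 4.3), Fdft1 (15.6 ± 1.79), Lss (1.44 ± 0.326) and Idi1 (0.766 ± 0.212 CPM per kb). Sqle lay above Fdft1 there by more than their summed SDs, while Insig1 and Fdft1 lay within theirs. In cytosolic pS6, Sqle (13.5 ± 1.4) and Fdft1 (11.2 ± 1.1 CPM per kb) were within their summed SDs. In membrane Input, Insig1 (27.4 ± 5.52), Sqle (21.8 ± 1.85) and Fdft1 (19.8 ± 1.43 CPM per kb) came after Srebf2 (52.4 ± 5.72) and Hmgcs1 (40.2 ± 4.26). Idi1 rested on 19 to 180 counts per library, against 1275 to 5188 for Hmgcs1. The exon total of Lss, 10.787 kb, counts every annotated isoform and lowers its level per kb. Exons of Fdft1 overlap Ctsb over 18.3% of their length, and those of Hmgcs1, Idi1 and Lss overlap a noncoding or unclassified gene over 12.1%, 9.2% and 3.5%; whether counting used strand is not given in the sources used here, so reads there may be shared.

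Between fractions the 7 genes ran from -0.70 to 1.59 on the log2 scale. In Camk2a and Input, transcripts of the regulators Insig1 and Srebf2 and of Sqle had the largest excesses in the membrane fraction and Hmgcs1 and Lss smaller ones. In pS6, Insig1 and Srebf2 had the largest excesses, and Sqle, Hmgcs1 and Lss were close to one another. Fdft1 was near equal outside pS6, and Idi1 leaned to the cytosolic fraction. A gene was called when its edgeR adjusted p was below 0.05 and its fold at least 2. By that rule 2 of 7 were higher in membrane pS6 than in cytosolic pS6, 3 of 7 in Camk2a and 3 of 7 in Input, and none was lower. Of all genes tested, 35.3% were called in pS6, 38.2% in Camk2a and 31% in Input, so the members' share is near the background; genes higher in membrane alone made up 25.3% in pS6, 27.9% in Camk2a and 22% in Input. CPM values in this and the next comparison are scaled within the pair of library types compared.

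Insig1 ranged over 41.9, 61.2 and 101 CPM (lowest, median, highest of 30) in membrane pS6, against 17.1, 20.7 and 26.8 CPM in cytosolic pS6. In Camk2a it ranged over 34, 42.2 and 56.6 CPM in membrane, against 11.1, 14.3 and 18.7 CPM in cytosolic libraries. In Input it ranged over 47.2, 93.8 and 127 CPM in membrane, against 27.2, 37.3 and 43.2 CPM in cytosolic libraries. The fractions did not overlap in any of the 3, and membrane was higher in 30 of 30 mice in each. The log2 fold change was 1.59 ± 0.05 in pS6 (adjusted p = 7.13e-39), 1.56 ± 0.05 in Camk2a (adjusted p = 2.51e-41) and 1.32 ± 0.06 in Input (adjusted p = 1.3e-28; ± SE throughout).

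Srebf2, whose product spans the membrane of the reticulum, was also higher in the membrane fraction of every mouse. It ranged over 247, 279 and 317 CPM in membrane pS6, against 92, 109 and 127 CPM in cytosolic pS6. In Camk2a it ranged over 369, 418 and 495 CPM in membrane, against 132, 159 and 182 CPM in cytosolic libraries, and in Input over 270, 427 and 475 CPM, against 152, 177 and 199 CPM. Again no fractions overlapped, with log2 fold changes of 1.35 ± 0.03 in pS6, 1.41 ± 0.03 in Camk2a and 1.22 ± 0.04 in Input (adjusted p = 1.58e-49, 1.77e-47 and 5.61e-40).

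Sqle, the squalene epoxidase, was called in Camk2a and Input. In Camk2a it ranged over 71.9, 89.2 and 114 CPM in membrane, against 31.2, 37.9 and 48.3 CPM in cytosolic libraries (log2 fold change 1.25 ± 0.04, adjusted p = 4.31e-40). In Input it ranged over 114, 131 and 154 CPM in membrane, against 41.8, 49.7 and 69.9 CPM in cytosolic libraries (1.38 ± 0.04, adjusted p = 4.67e-44). In pS6 it ranged over 107, 138 and 194 CPM in membrane, against 60.7, 74.3 and 95.2 CPM in cytosolic libraries, again without overlap. That change, 0.88 ± 0.04 on the log2 scale, fell short of the fold of 2; the difference between captures was not tested.

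Hmgcs1, a soluble enzyme of the cytosol, had log2 fold changes of 0.89 ± 0.04 in pS6, 0.79 ± 0.04 in Camk2a and 0.84 ± 0.04 in Input, under the fold of 2 but above cytosolic in 30 of 30 mice in each. Its levels were 124, 163 and 203 CPM in membrane pS6, against 68.7, 87.4 and 119 CPM in cytosolic pS6, with no overlap there. Lss had log2 fold changes of 0.90 ± 0.08 in pS6, 0.41 ± 0.05 in Camk2a and 0.57 ± 0.04 in Input, with overlapping fractions in all 3. Both genes were above cytosolic in nearly every mouse, Lss in 29, 28 and 30 of 30, without reaching the fold required.

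Fdft1, the squalene synthase, gave log2 fold changes of 0.51 ± 0.04 in pS6, 0.02 ± 0.03 in Camk2a and 0.05 ± 0.03 in Input. In Camk2a it ranged over 72.2, 83.9 and 96.8 CPM in membrane, against 71.7, 82.2 and 96.9 CPM in cytosolic libraries, which overlapped almost wholly. The 95% interval of the Camk2a change, -0.03 to 0.08, leaves room only for small differences, and with scaling over all 180 libraries the value was -0.08. Idi1, a soluble enzyme, gave -0.50 ± 0.09 in pS6, -0.70 ± 0.07 in Camk2a and -0.12 ± 0.06 in Input. It ranged over 1.23, 2.44 and 3.74 CPM in membrane Camk2a, against 3.29, 3.94 and 5.1 CPM in cytosolic Camk2a, and was lower in membrane in 29 of 30 mice. The fold of Idi1 also stayed under 2, and its few counts make it the least precise of the 7.

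**Figure D1:**
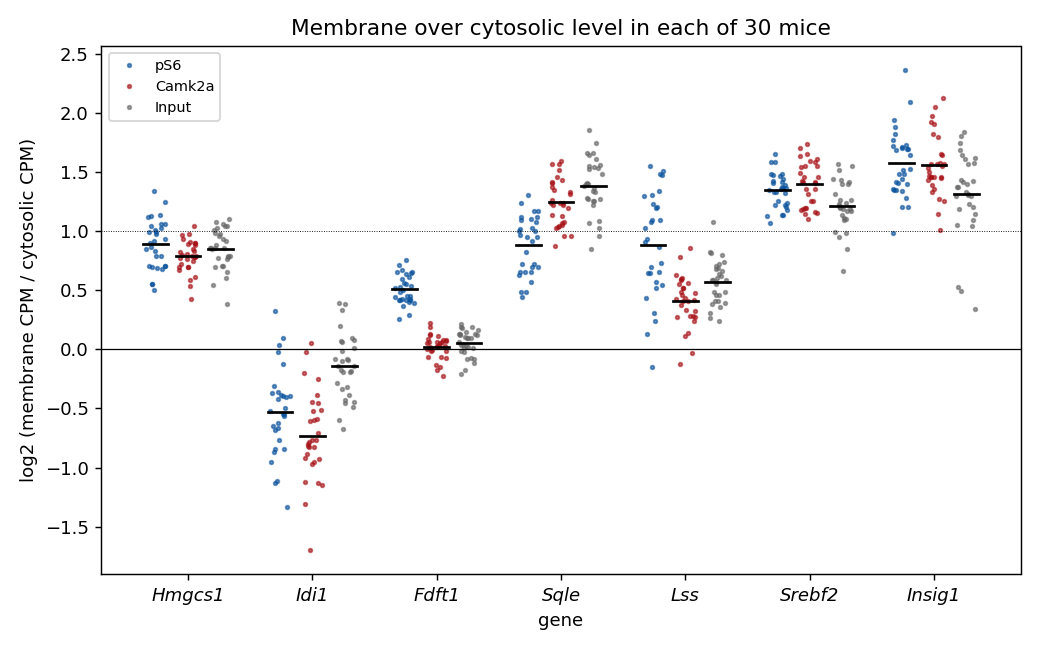
Log2 ratio of membrane to cytosolic CPM (vertical axis) for each gene (horizontal axis), a point per mouse (n = 30), coloured by capture, with black bars for means; the solid line marks equal levels and the dotted line a fold of 2. Insig1 and Srebf2 lie above 0 in every mouse, while Fdft1 in Camk2a and Input lies around 0 and Idi1 mostly below it.

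The rest of the pathway split by enzyme in the same comparison. Of 16 other synthesis enzymes, 9 were higher in membrane pS6, 8 in membrane Camk2a and 8 in membrane Input, with 0 lower. Their median log2 fold changes were 1.37 in pS6, 1.1 in Camk2a and 1.01 in Input, beside medians over all genes of -0.0328, -0.0739 and -0.118. Cyp51, which demethylates lanosterol, was higher by 2.02 ± 0.05 in pS6, 1.81 ± 0.04 in Camk2a and 2.22 ± 0.05 in Input on the log2 scale, and Ebp, a sterol isomerase, by 1.94 ± 0.05, 2.21 ± 0.05 and 1.79 ± 0.04, with the captures in the same order.

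None of the early soluble enzymes Acat2, Mvk, Pmvk, Mvd and Fdps was called in any capture; Mvk, Mvd and Fdps, and Scap below, were picked out after their values were seen. Acat2, which joins acetyl-CoA units, gave log2 fold changes of -0.22 ± 0.04 in pS6, -0.23 ± 0.03 in Camk2a and -0.43 ± 0.04 in Input. Mvk, mevalonate kinase, gave 0.08 ± 0.06 in pS6, 0.02 ± 0.05 in Camk2a and 0.03 ± 0.05 in Input, and Pmvk, the next kinase, -0.17 ± 0.05, -0.15 ± 0.04 and -0.28 ± 0.04. Mvd and Fdps lay between -0.43 and -0.03 in the 3 captures. Hmgcs1, at 0.79 to 0.89, stood above these 5 although it too is soluble.

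Of 14 other genes of the SREBP machinery and sterol uptake, 10 were higher in membrane pS6, 12 in membrane Camk2a and 10 in membrane Input. Scap, the SREBP escort, was higher by 1.65 ± 0.04 in pS6, 1.74 ± 0.04 in Camk2a and 1.63 ± 0.06 in Input on the log2 scale. Insig2, the paralogue of Insig1, reached 0.80 ± 0.03 in pS6, 1.06 ± 0.04 in Camk2a and 0.65 ± 0.03 in Input, and so passed in Camk2a alone; it was looked up after the values were seen, and the difference between captures was not tested. Mylip, the ubiquitin ligase that degrades the LDL receptor, gave -0.72 ± 0.05 in pS6, -0.71 ± 0.04 in Camk2a and -0.49 ± 0.04 in Input and was not called. Of 11 fatty acid synthesis genes 8 were higher in membrane pS6, 7 in membrane Camk2a and 6 in membrane Input, and of 10 export and turnover genes 7 in each. Glial markers moved the same way: the summed level of 10 astrocyte markers ranged over 4300 to 13900 CPM in membrane pS6, against 494 to 2040 CPM in cytosolic pS6, and over 1980 to 4340 CPM in membrane Camk2a, against 189 to 416 CPM in cytosolic Camk2a. That of 10 microglia markers ranged over 191 to 494 CPM in membrane Camk2a, against 12.3 to 21.8 CPM in cytosolic Camk2a. Their part in the fraction differences was not tested.

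Insig1 had lower fitted values in captured ribosomes than in Input in both captures and both fractions, by a fold of 2 in 1 of the 4 (a further one without the libraries that stood apart), whereas Sqle was the member with most in pS6 relative to Camk2a. In Camk2a over Input, 1 of 7 was called in the membrane fraction (18.7% of all genes) and 1 of 7 in the cytosolic fraction (16.8%), both lower; genes that were lower alone made up 16.8% in membrane and 16.5% in cytosolic libraries. In pS6 over Input, 0 of 7 were called in membrane (10.8% of all genes) and 0 of 7 in cytosolic libraries (20.2%), by edgeR and DESeq2. An unadjusted edgeR p under 0.05 was held by 7 of 7 in each, beside 76.6% of all genes in membrane and 85.6% in cytosolic libraries. In pS6 over Camk2a, 0 of 7 were called in membrane (17.9% of all genes) and 0 of 7 in cytosolic libraries (30.7%) by both tools. There 5 and 7 had an unadjusted edgeR p under 0.05, beside 83.1% and 90.1% of all genes.

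Insig1 ranged over 12.7, 16.3 and 22.2 CPM in cytosolic Camk2a, against 28.9, 38.8 and 46.2 CPM in cytosolic Input, without overlap and lower in 30 of 30 mice. The log2 fold change was -1.18 ± 0.04 (adjusted p = 1.98e-34). In the membrane fraction it ranged over 32.9, 40.2 and 53.6 CPM in Camk2a, against 41, 82.4 and 111 CPM in Input. That change was -0.96 ± 0.06, just under the fold of 2, and lower in 30 of 30 mice though the ranges met. Without the 3 membrane Input libraries that stood apart it was -1.05 ± 0.04 and was called (adjusted p = 3.4e-31). In pS6 over Input, Insig1 gave -0.55 ± 0.07 in membrane and -0.75 ± 0.04 in cytosolic libraries.

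Idi1 was called in membrane Camk2a over Input, at 1.16, 2.35 and 3.6 CPM in Camk2a, against 3.18, 4.6 and 6.91 CPM in Input (log2 fold change -1.04 ± 0.08, adjusted p = 2.59e-18). Scaling over all 180 libraries gave -0.94 and ended that call. In membrane pS6 over Input the value was -0.99 ± 0.09, and it just passed the fold of 2 with the mouse as a block. Lss stood at -0.58 ± 0.05 in membrane and -0.41 ± 0.04 in cytosolic Camk2a over Input, and at -0.61 ± 0.07 in membrane and -0.88 ± 0.05 in cytosolic pS6 over Input.

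Sqle was the one member above Input in pS6. It ranged over 69.6, 82.9 and 102 CPM in cytosolic pS6, against 46.2, 53.2 and 71.2 CPM in cytosolic Input, and was higher in 30 of 30 mice (log2 fold change 0.64 ± 0.04, under the fold of 2). In the membrane fraction it ranged over 98.3, 128 and 176 CPM in pS6, against 104, 120 and 141 CPM in Input, with a change of 0.09 ± 0.04. In Camk2a over Input it gave -0.42 ± 0.03 in membrane and -0.27 ± 0.04 in cytosolic libraries, lower in 30 of 30 mice in both. Against Camk2a, pS6 libraries held more Sqle in 30 of 30 mice in each fraction, by 0.50 ± 0.04 in membrane and 0.80 ± 0.04 in cytosolic libraries.

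Fdft1 and Srebf2 went the other way in pS6. Fdft1 ranged over 42, 47.9 and 61.4 CPM in cytosolic pS6, against 81.9, 95 and 110 CPM in cytosolic Camk2a, without overlap. Its change, -0.97 ± 0.03, was just short of the fold of 2 and passed at -1.02 when genes with low counts were kept. In membrane pS6 over Camk2a it was -0.44 ± 0.03. Srebf2 ranged over 218, 246 and 278 CPM in membrane pS6, against 340, 403 and 459 CPM in membrane Camk2a, without overlap, and gave -0.72 ± 0.03 in membrane and -0.71 ± 0.03 in cytosolic libraries. Against Input, Fdft1 (-0.01 ± 0.03 in membrane, 0.04 ± 0.03 in cytosolic) and Srebf2 (0.15 ± 0.04 in membrane, -0.01 ± 0.03 in cytosolic) were close to equal in Camk2a.

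Hmgcs1 gave -0.16 ± 0.04 in membrane and -0.08 ± 0.04 in cytosolic Camk2a over Input, and -0.30 ± 0.04 in membrane and -0.28 ± 0.05 in cytosolic pS6 over Input. Scaling over all 180 libraries moved the median gene by 0.177 in cytosolic Camk2a over Input, and by 0.0984 in membrane. Under it the cytosolic Camk2a values of Hmgcs1 and Srebf2 turned to 0.10 and 0.16, and the membrane value of Fdft1 to 0.09, so no direction is given for these. In membrane pS6 over Input the share of called genes that were higher was 66.6%, and 77.1% under that scaling.

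**Figure D2:**
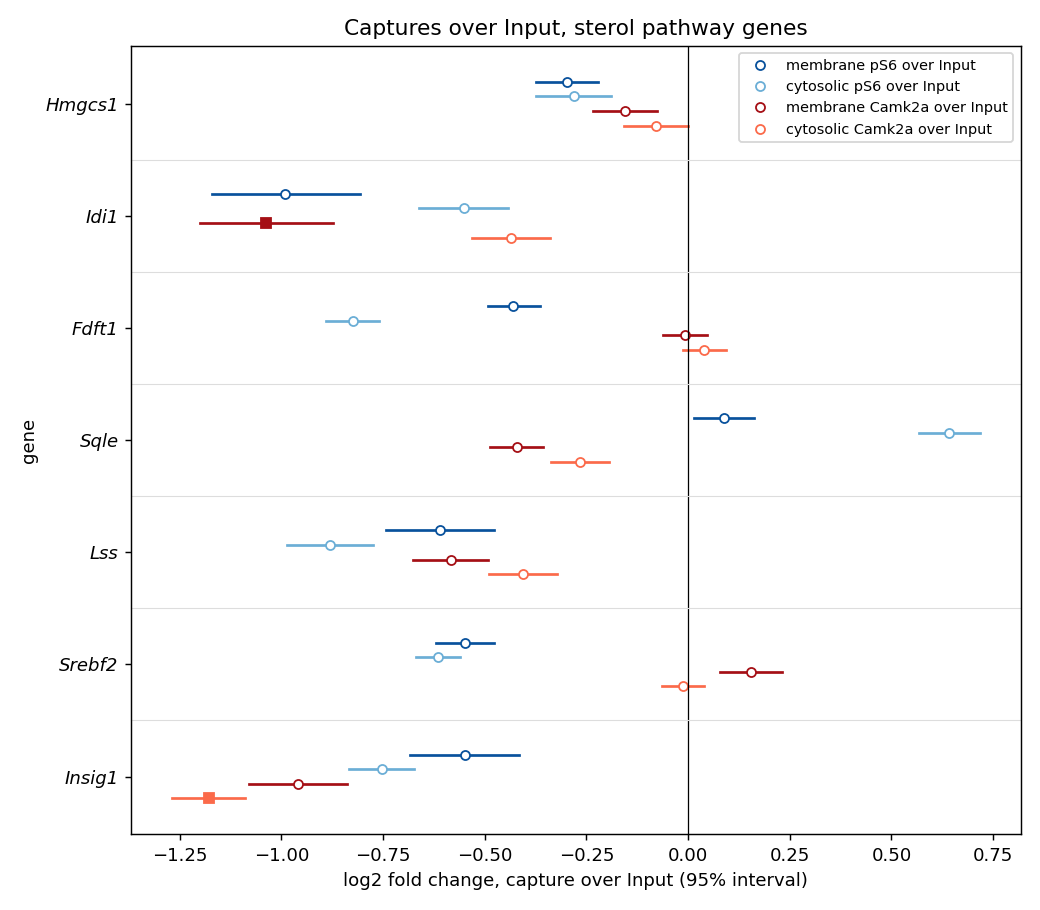
Log2 fold change of each capture over Input (horizontal axis, 0 means equal) for each gene (vertical axis), with 95% intervals, n = 30 mice for each library type. Filled squares passed an adjusted p of 0.05 and a fold of 2: Insig1 in cytosolic Camk2a and Idi1 in membrane Camk2a; Sqle in cytosolic pS6 lies farthest to the right.

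Among the other lists, none of the 16 synthesis enzymes was called in Camk2a over Input. Lbr, which encodes a sterol reductase that is also the lamin B receptor, was called lower in cytosolic pS6 over Input (-1.37 ± 0.07, adjusted p = 1.53e-26). Srebf1, which encodes the SREBP isoforms of fatty acid synthesis, was lower by log2 fold changes of -1.51 ± 0.05 in membrane and -1.89 ± 0.05 in cytosolic Camk2a over Input. Apoe, the main lipid carrier of the brain and made largely by astrocytes, was lower by -1.66 ± 0.07 in membrane and -4.07 ± 0.08 in cytosolic Camk2a over Input. Cyp46a1, the neuronal enzyme that hydroxylates cholesterol for removal, gave 0.58 ± 0.04 in membrane and 0.66 ± 0.04 in cytosolic Camk2a over Input, short of the fold of 2. Astrocyte markers were lower for 10 of 10 genes in both fractions of Camk2a over Input, with a median of -1.92 in membrane and -3.25 in cytosolic libraries; the part of glial RNA in the members' differences was not tested.

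The effect of sleep deprivation, averaged over trained and untrained mice, was small for all 7 genes. In none of the 6 library types did a member pass an edgeR adjusted p of 0.05. With all libraries kept, only Insig1 came near, in cytosolic Camk2a. Its fitted values were lower in SD mice in Camk2a and Input, but these libraries come from the same mice and are not independent results. The share of all genes called was 1.73% in membrane pS6, 7.88% in cytosolic pS6, 2.97% in membrane Camk2a, 6.28% in cytosolic Camk2a, 1.37% in membrane Input and 3.17% in cytosolic Input. At an unadjusted edgeR p under 0.05 the members numbered 0, 0, 1, 1, 2 and 1 of 7 in the same order. The share of all genes at that level was 13.8%, 20.9%, 14.7%, 18.6%, 10.2% and 14.5%. DESeq2 called 1 member, Insig1 in cytosolic Camk2a, and none elsewhere. Values by mouse from here on are CPM scaled over the 180 libraries.

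In cytosolic Camk2a, Insig1 ranged over 12.6, 14.5 and 17.4 CPM in CFC SD mice, against 14.8, 17.6 and 20.2 CPM in CFC Sleep mice. It ranged over 15.6, 16.5 and 19.8 CPM in NoCFC SD mice, against 15.8, 19.4 and 21.8 CPM in NoCFC Sleep mice. The groups overlapped, and 13 of 14 SD mice lay below the median of Sleep mice of the same training. The log2 fold change was -0.19 ± 0.06 (95% interval -0.31 to -0.06, unadjusted p = 0.00418), with an edgeR adjusted p of 0.06 and a DESeq2 adjusted p of 0.0336. Within mice 1 to 11, 12 to 22 and 23 to 30 the difference was -0.15, -0.22 and -0.17.

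In membrane Input, Insig1 ranged over 45.4, 76.8 and 102 CPM in CFC SD mice, against 58, 93.1 and 120 CPM in CFC Sleep mice, and over 73.1, 76 and 85.9 CPM in NoCFC SD mice, against 75.7, 90.3 and 116 CPM in NoCFC Sleep mice. The log2 fold change was -0.28 ± 0.11 (adjusted p = 0.284), below the Sleep median in 12 of 14 SD mice, and -0.22, -0.28 and -0.38 within the 3 runs of mouse numbers. The lowest CFC values belonged to the libraries that stood apart, with 45.4 and 47.9 CPM in mice 22 and 30 of CFC SD and 58 CPM in mouse 16 of CFC Sleep. Their excitatory marker sums were also low, at 4740, 5440 and 5220 CPM, beside 7060 to 8410 CPM in the other SD mice and 6860 to 8920 CPM in the other Sleep mice. Without these 3 libraries Insig1 ranged over 70.3, 76.9 and 102 CPM in 12 SD mice, against 75.7, 92.2 and 120 CPM in 15 Sleep mice, and 10 of 12 SD mice lay below the Sleep median. The log2 fold change was then -0.22 ± 0.06 (95% interval -0.34 to -0.09, unadjusted p = 0.000976, edgeR adjusted p = 0.0658), smaller and more precise and still not called. In cytosolic Input it was -0.12 ± 0.06 (adjusted p = 0.342, 13 of 14 below; -0.15 ± 0.06, adjusted p = 0.141, without mouse 6) and in membrane Camk2a -0.16 ± 0.06 (adjusted p = 0.171, 9 of 14 below). In cytosolic Input the difference within mice 1 to 11, 12 to 22 and 23 to 30 was -0.02, -0.17 and -0.22. In membrane Camk2a it was -0.08, -0.25 and -0.15 in the same order. The pS6 libraries showed no such shift, at 0.02 ± 0.08 in membrane and -0.01 ± 0.05 in cytosolic libraries. The 95% intervals there, -0.15 to 0.18 and -0.12 to 0.10, do not show that the values were equal. The SD effect in pS6 less that in Camk2a was 0.19 ± 0.11 for Insig1 in membrane (adjusted p = 0.999) and 0.17 ± 0.08 in cytosolic libraries (adjusted p = 0.537), so a difference between captures was not established.

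**Figure D3:**
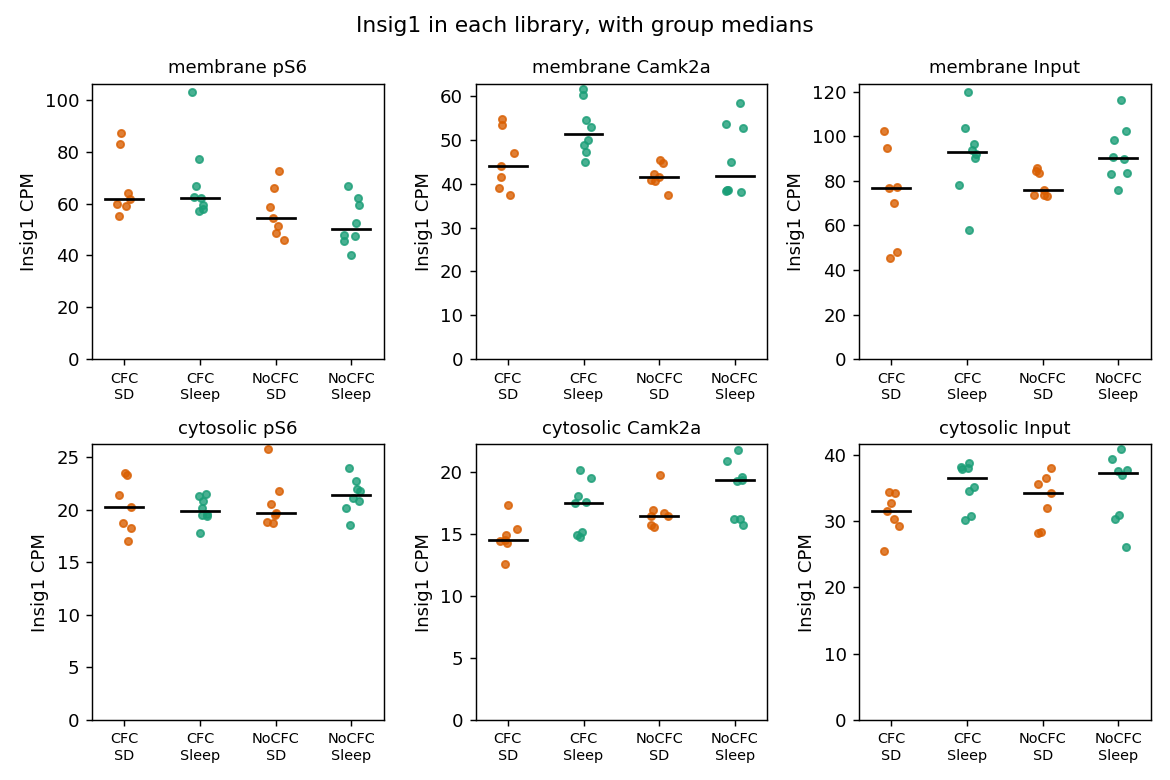
Insig1 level (vertical axis, CPM scaled over the 180 libraries) in each library of the 6 types, by group (horizontal axis), SD in orange and Sleep in green, a point per mouse (7 CFC SD, 8 CFC Sleep, 7 NoCFC SD, 8 NoCFC Sleep) with a black bar for the median. SD medians lie below Sleep medians in cytosolic Camk2a (14.5 against 17.6 CPM after CFC) and the groups overlap.

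The remaining 6 genes had smaller differences, Idi1 apart. Hmgcs1 had log2 fold changes for SD over Sleep between -0.11 ± 0.06 (membrane Camk2a) and 0.03 ± 0.07 (cytosolic pS6). Srebf2 lay between -0.05 ± 0.04 (cytosolic Camk2a) and values near 0, and its widest 95% interval reached -0.16 to 0.08 (membrane Input). Sqle lay between -0.07 and 0.07, and Fdft1 between -0.06 and -0.01, over the 6 types. Lss was lowest in membrane Input, at -0.14 ± 0.06 (adjusted p = 0.367), where it ranged over 17.2, 21.2 and 26.2 CPM in SD mice, against 20.5, 23.6 and 27 CPM in Sleep mice. Idi1, with few counts, lay between -0.04 and 0.18, with an interval as wide as -0.15 to 0.51 in membrane pS6. For the 5 enzymes and Srebf2, then, changes of the size of a doubling lie outside every interval, and smaller changes may have gone undetected at this depth and number of mice.

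**Figure D4:**
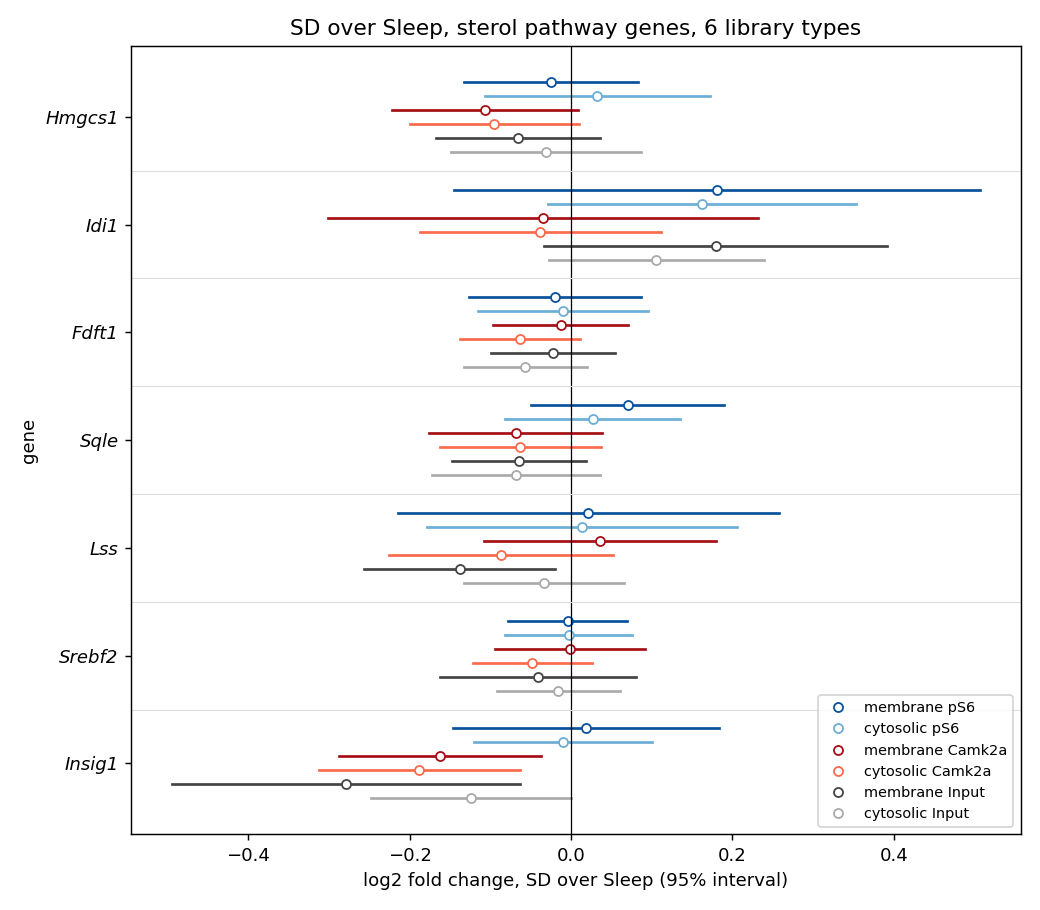
Log2 fold change of SD over Sleep (horizontal axis) for each gene (vertical axis) in the 6 library types, with 95% intervals (14 SD and 16 Sleep mice in each type). All markers are open circles since no gene passed an adjusted p of 0.05; the intervals of Insig1 lie below 0 in membrane Camk2a, cytosolic Camk2a and both Input types.

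Of 16 other enzymes of the pathway, 5 were higher and 0 lower in SD mice in cytosolic pS6, where 4.6% of all genes were higher, with a median log2 fold change of 0.143 beside 0.00328 over all genes, while the 7 members had a median of 0.0136. Pmvk rose by 0.30 ± 0.05 (edgeR adjusted p = 0.00013, with all 14 of 14 SD mice above the median of their Sleep counterparts). Sc5d, a late desaturase, rose by 0.19 ± 0.05 (adjusted p = 0.0276) and Hsd17b7, a sterol reductase, by 0.26 ± 0.08 (adjusted p = 0.0374). Cyp51, named after its value was seen, rose by 0.22 ± 0.07 (adjusted p = 0.0436). With genes of low count kept, 2 of the 16 passed. The list of 16 was chosen with earlier results of these data known, so its counts are descriptive only. Msmo1 and Acat2, the most abundant that did not pass, gave 0.15 ± 0.06 and 0.03 ± 0.05.

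In membrane pS6 and both Input types 0 of 16 enzymes passed, as in cytosolic Camk2a, and in membrane Camk2a 1 fell: Nsdhl, a sterol dehydrogenase, by 0.19 ± 0.06 (adjusted p = 0.0475). Soat1, which esterifies cholesterol, rose by 0.39 ± 0.09 in cytosolic pS6 (adjusted p = 0.0031) and by 0.20 ± 0.05 in membrane Camk2a (adjusted p = 0.0314). Mylip fell by 0.38 ± 0.09 in membrane pS6 (adjusted p = 0.0219) and by 0.27 ± 0.06 in cytosolic pS6 (adjusted p = 0.00245). Elovl6, a fatty acid elongase, rose by 0.25 ± 0.05 in membrane pS6 (adjusted p = 0.00151), 0.17 ± 0.05 in cytosolic pS6 (adjusted p = 0.0432) and 0.19 ± 0.05 in membrane Camk2a (adjusted p = 0.0295). Npc1, which moves cholesterol out of lysosomes, rose by 0.21 ± 0.06 in membrane Camk2a (adjusted p = 0.0341).

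Some cell type markers differed with SD in the same cytosolic pS6 libraries, where 758 of all 16485 genes were called higher and 541 lower. All 9 inhibitory neuron markers rose, and their summed level ranged over 862 to 1160 CPM in SD mice, against 656 to 881 CPM in Sleep mice. The astrocyte markers had a median log2 fold change of 0.345 with 1 of 10 called, and their sum ranged over 569 to 2040 CPM in SD mice, against 494 to 1590 CPM in Sleep mice. Of 7 excitatory markers 2 fell, with sums of 7970 to 10700 CPM in SD mice, against 8500 to 11300 CPM in Sleep mice. Their part in the enzymes' rise was not tested.

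Between CFC and NoCFC mice 2 of the 7 genes differed, both in membrane pS6, where Hmgcs1 was lower and Insig1 higher in CFC mice. Neither difference was separable from mouse number, and that of Insig1 lost its call without 1 library that stood apart. Of all genes, 16.8% were called in membrane pS6, 8.1% higher and 8.75% lower. In the other types 0 of 7 passed by edgeR or DESeq2, with 0.133% of genes called in cytosolic pS6, 17% in membrane Camk2a, 0.148% in cytosolic Camk2a, 6.53% in membrane Input and 0.219% in cytosolic Input. At an unadjusted edgeR p under 0.05 these held 0, 2, 1, 0 and 0 of the 7. The share of all genes at that level was 6.81%, 30.7%, 7.71%, 21.5% and 9.12% in the same order.

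Hmgcs1 ranged over 126, 160 and 179 CPM in the 15 CFC mice, against 142, 167 and 190 CPM in the 15 NoCFC mice, in membrane pS6. The groups overlapped, with 4 CFC mice below every NoCFC mouse, and the log2 fold change was -0.19 ± 0.05 (edgeR adjusted p = 0.0119). Among mice 23 to 30 alone it ranged over 146, 166 and 179 CPM in 4 CFC mice, against 150, 163 and 178 CPM in 4 NoCFC mice. With the run of mouse numbers in the model the change was -0.06 (adjusted p = 0.95).

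Insig1 ranged over 55.2, 62 and 103 CPM in CFC mice, against 40.2, 52.6 and 72.5 CPM in NoCFC mice, and 15 of 15 CFC mice lay above the median of NoCFC mice with the same sleep. The log2 fold change was 0.23 ± 0.08 (adjusted p = 0.047; 0.0604 with low counts kept). Without the library of mouse 19, which stood apart, it was 0.20 ± 0.08 and was not called (adjusted p = 0.0835), while Hmgcs1 kept its call at -0.19 ± 0.05 (adjusted p = 0.0163). That library held 87.1 CPM of Insig1 and the highest astrocyte marker sum, 13900 CPM. Among mice 23 to 30 it ranged over 55.2, 61.9 and 77.2 CPM in CFC mice, against 59.3, 66.4 and 72.5 CPM in NoCFC mice. With the run in the model the value turned to -0.105 (adjusted p = 0.925), and the number of genes called in membrane pS6 dropped to 12, against 2803 without it. Training and run cannot be told apart in the first 22 mice. Some glial markers differed in the same libraries, where 8.1% of all genes were called higher. Microglia sums ranged over 561, 708 and 878 CPM in CFC mice, against 470, 596 and 745 CPM in NoCFC mice, with 2 of 10 markers higher. Astrocyte sums ranged over 4500, 5560 and 13900 CPM in CFC mice, against 4300, 5300 and 8060 CPM in NoCFC mice, with 1 of 10 higher. Oligodendrocyte sums had a lower median in CFC mice, at 2110, 2960 and 3910 CPM, against 2400, 3130 and 3590 CPM in NoCFC mice. The part of glial markers in the training values was not tested. Sqle gave 0.15 ± 0.06 in membrane pS6 (adjusted p = 0.0874), at 120, 149 and 198 CPM in CFC mice, against 102, 127 and 163 CPM in NoCFC mice.

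**Figure D5:**
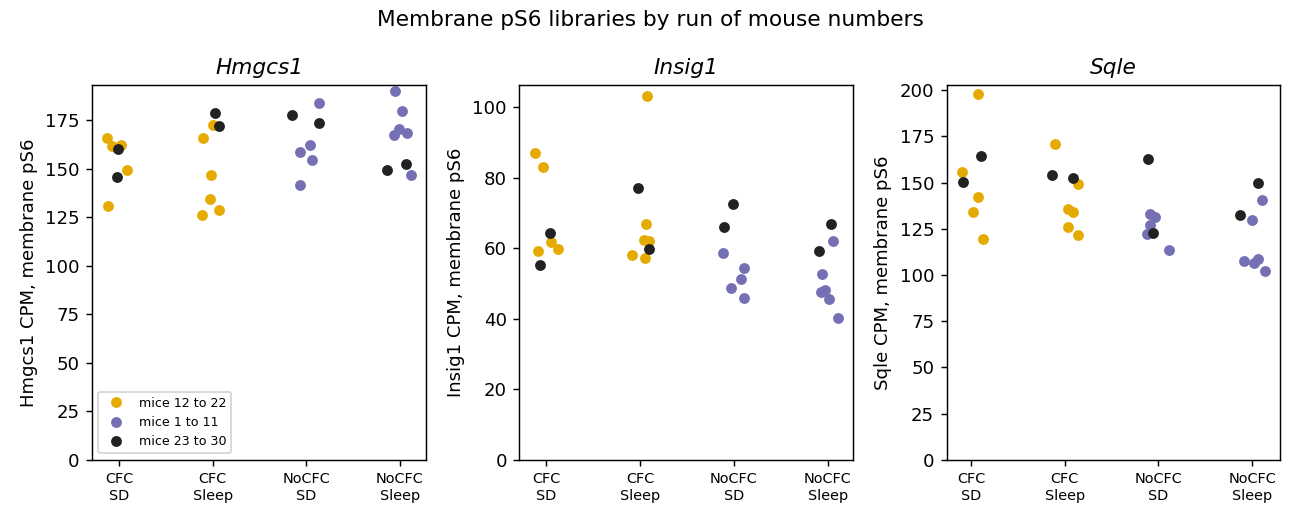
Level of Hmgcs1, Insig1 and Sqle (vertical axes, CPM scaled over the 180 libraries) in membrane pS6 libraries by group (horizontal axis), a point per mouse coloured by run of mouse numbers. The coloured runs hold 1 training each, and the Insig1 points of mice 12 to 22 (CFC, 57.3 to 103 CPM) lie mostly above those of mice 1 to 11 (NoCFC, 40.2 to 62.1 CPM). The black points, mice 23 to 30 with both trainings, overlap (55.2 to 77.2 CPM in CFC, 59.3 to 72.5 CPM in NoCFC).

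Some genes around the pathway also differed with training in the membrane types. In membrane Camk2a, where 9.81% of all genes rose, 5 of 16 other enzymes rose, among them Sc5d by 0.26 ± 0.05 and Cyp51 by 0.21 ± 0.04 (adjusted p = 0.000643 and 0.000924), and 7 of 14 SREBP machinery genes rose, led by Erlin2, an Insig partner, by 0.27 ± 0.05 (adjusted p = 0.00027). In membrane pS6, where 8.1% of all genes rose, 4 of 16 enzymes and 4 of 14 machinery genes rose (3 and 3 without the library of mouse 19), including Insig2 by 0.28 ± 0.05 (adjusted p = 9.56e-05), while Fasn, the fatty acid synthase, fell by 0.48 ± 0.07 (adjusted p = 1.4e-05). With the run in the model, 12 of all genes passed in membrane pS6 and 1 in membrane Camk2a, and 0 genes of either list. Without the run term, glial markers rose beside the listed genes in membrane Camk2a (astrocyte 5 of 10, oligodendrocyte 5 of 10, microglia 6 of 10). The astrocyte sum there ranged over 1980 to 4340 CPM in CFC mice, against 2120 to 3190 CPM in NoCFC mice. The part of glial markers was not tested.

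No gene of the whole table passed a test of training by sleep in any library type by edgeR or DESeq2, and none of the 7 had an unadjusted p under 0.05 in those 42 tests. The smallest p was 0.0751, for Srebf2 in membrane pS6, with an interaction of 0.13 ± 0.07 on the log2 scale. The SD effect did not pass a test of difference between membrane and cytosolic fractions for any member in any of the 3 captures (lowest unadjusted p 0.191 in 21 tests), nor between pS6 and Camk2a. In the comparison of captures 0.0589% of all genes passed in membrane and 0.586% in cytosolic libraries. In the cytosolic libraries Insig1 was the 1 member of 7 with an unadjusted edgeR p under 0.05, beside 8.3% of all genes.

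The members did not share one profile over the 24 combinations of library type and group. Likeness was measured as the root mean square difference between group mean log2 CPM profiles, each centred on its own mean, among 9815 genes with a mean log2 CPM of at least 3; Idi1 fell below that level. The closest pair of members was Hmgcs1 and Lss at 0.261, where Lss ranked 308th among the genes nearest to Hmgcs1. The nearest genes were Pnpla6 to Srebf2 (0.073), Ppp6r3 to Fdft1 (0.0866), Add3 to Lss (0.107), Kcnk2 to Sqle (0.108), Ckb to Hmgcs1 (0.121) and Edem1 to Insig1 (0.156). To the mean profile of the 6 measured members the nearest were Slc35e3 (0.11), Gnptab (0.117), Atp8b2 (0.118), Lrrtm2 (0.122) and 2610507B11Rik (0.126). These distances describe 24 group means that share mice and libraries, and they carry no test.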

How the data were processed

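The deposited values are raw read counts per gene. Per the submitters' processing notes, the authors' tools were STAR 2.6.1a, featureCounts (version not given in the sources used here) and MultiQC 1.6a0 on GRCm38.p6, and per the labels' protocols the libraries were SMART-seq v4. The counts of 54429 genes in 180 libraries were fitted as deposited with edgeR 4.0.16 (quasi-likelihood test, TMM scaling, low counts filtered by edgeR's default) in R 4.3.3, with Benjamini-Hochberg adjustment over all genes tested. SD and CFC effects were averaged over the 4 groups within a library type. Fraction and capture effects compared pairs of library types and needed a fold of 2 beside an adjusted p under 0.05. DESeq2 1.42.0, other scalings, no filter, the run of mouse numbers and the mouse as a block were alternatives. The fits were also tested on simulated data. The simulated libraries were drawn independently, with no shared mouse effect, so they cannot check fits that leave the mouse out. Libraries of one mouse deviated together (median correlation 0.279 over 9817 genes, against -0.0119 between mice). No library was left out, except in an alternative without 5 that stood apart. The 7 genes and all gene lists were chosen with earlier results of these data known. Of the other lists, up to 4 called genes with the smallest p and 2 abundant uncalled genes were named, with later choices said to be such. Mice are the replicates, and intervals at 95% cover them. The main fits of pairs of library types, SD differences included, had no term for the mouse. Their standard errors and intervals treat the 2 libraries of a mouse as independent. An item of the synthesis enzyme list is counted in its totals but is not reported here by name.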

Additional observations from a re-analysis of the deposited data

Results flagged for a closer look

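In 12 of 168 gene, type and group combinations (7.14%) a single mouse stood far from the rest of its group, where chance gives about 1 in 20; 11 were high and 1 was low. All values are CPM scaled over the 180 libraries, with the nearest other mouse of the group after each. Hmgcs1 reached 206 (nearest 182) in membrane Input of CFC SD mice, 151 (119) in cytosolic Camk2a of NoCFC Sleep mice and 121 (90.0) in cytosolic pS6 of NoCFC Sleep mice, and was lowest at 67.6 (84.2) in cytosolic pS6 of CFC Sleep mice. Sqle reached 163 (133) in membrane pS6 of NoCFC SD mice. Insig1 reached 103 (77.2) in membrane pS6 of CFC Sleep mice and 19.8 (16.9) in cytosolic Camk2a of NoCFC SD mice. Idi1 reached 4.78 (3.15) in membrane pS6 of NoCFC SD mice. Fdft1 reached 82.9 (67.0) in membrane pS6 of CFC SD mice, 89.0 (71.0) in membrane pS6 of CFC Sleep mice, 60.2 (48.0) in cytosolic pS6 of CFC SD mice and 106 (88.2) in membrane Camk2a of NoCFC Sleep mice.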

How the results depend on the processing

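Of 1316 values of single members under alternatives, 1209 were rated the same. The others were 4 that lost a call, 48 that gained one, 52 that reversed and 3 that moved by more than the spread. Of the gains, 44 came from adjusted p alone, without the fold of 2. Insig1 for CFC in membrane pS6 with the run term also lost its call and is counted as reversed. The same meant an unchanged direction and side of the threshold, except for SD values within the runs of mouse numbers. Those were rated the same when they lay within the spread of the main value, whatever their sign, since no member was called there. The cause was not tested where none is given. Members called moved as follows. DESeq2 gave 1 for SD in cytosolic Camk2a, against 0. For CFC in membrane pS6, keeping low counts gave 1 and the run term 0, against 2. With adjusted p alone and no fold, the fraction comparison gave 7 in pS6, 6 in Camk2a and 5 in Input. That rule gave 7 in membrane and 7 in cytosolic pS6 over Input, 6 in membrane and 4 in cytosolic Camk2a over Input, and 5 in membrane and 7 in cytosolic pS6 over Camk2a. TMM over all 180 libraries, added after the data were seen, gave 0 for membrane Camk2a over Input, against 1. The replicate block (the mouse) gave 1 for membrane pS6 over Input, and keeping low counts 1 for cytosolic pS6 over Camk2a. Without the 5 libraries that stood apart, also added after the data were seen, CFC in membrane pS6 gave 1, against 2, and membrane Camk2a over Input 2, against 1.

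With the run term, CFC values turned to -0.105 (Insig1), -0.0478 (Fdft1) and 0.0638 (Srebf2) in membrane pS6, to -0.207 (Sqle), 0.028 (Idi1) and -0.00493 (Lss) in cytosolic pS6, to -0.0466 (Sqle) and -0.0092 (Fdft1) in membrane Camk2a, to 0.133 (Idi1) and 0.0329 (Fdft1) in cytosolic Camk2a, to -0.0445 (Fdft1) in membrane Input and to 0.0125 (Idi1) and -0.0726 (Fdft1) in cytosolic Input, and SD in membrane Camk2a to 0.000176 (Srebf2). With low counts kept, CFC in cytosolic Camk2a turned to 0.000254 (Idi1) and 0.00452 (Lss), the interaction of Sqle in membrane pS6 to 0.0026, Camk2a over Input to 0.00443 (Srebf2, cytosolic) and 0.00101 (Fdft1, membrane), and the SD difference between fractions to 0.0224 (Fdft1, pS6) and -0.00408 (Sqle, Input). With TMM over all libraries, Fdft1 between fractions in Camk2a turned to -0.0823, cytosolic Camk2a over Input to 0.0988 (Hmgcs1) and 0.164 (Srebf2), membrane Camk2a over Input to 0.0911 (Fdft1), the SD difference between fractions in pS6 to 0.0125 (Fdft1) and that between captures in membrane to 0.0139 (Lss). The SD difference between fractions also turned, for Idi1 in Camk2a, to 0.00525 with DESeq2-type factors, 0.000505 with DESeq2 and 0.00788 with the replicate block, and for Fdft1 in pS6 to 0.00847, 0.00827 and 0.00112. Within mice, SD values moved to 0.042 (Hmgcs1, membrane Camk2a, 23 to 30), 0.0955 (Fdft1, membrane Input, 23 to 30) and 0.0145 (Lss, membrane Input, 12 to 22).

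Without the libraries that stood apart, some uncalled values turned sign. SD values turned to -0.00646 (Insig1) and 0.00463 (Srebf2) in membrane pS6, 0.00202 (Hmgcs1) in cytosolic Input and 0.00245 (Srebf2) in membrane Input. CFC values turned to -0.0153 (Fdft1) in membrane pS6 and to 0.0269 (Hmgcs1) and 0.00165 (Idi1) in cytosolic Input. In membrane Input CFC values turned from -0.103 to 0.0397 (Insig1), from 0.0743 to -0.0324 (Idi1) and from -0.0724 to 0.0164 (Srebf2). The interaction in membrane Input turned from -0.106 to 0.0217 (Insig1), from -0.0256 to 0.00689 (Fdft1) and from -0.0671 to 0.0237 (Srebf2). The SD difference between fractions turned to -0.0255 (Idi1, pS6), -0.0301 (Sqle, Input), -0.000942 (Idi1, Input) and 0.0319 (Srebf2, Input), and that between captures in membrane to -0.019 (Fdft1) and 0.00709 (Lss).

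Over all genes, the run term left CFC calls at 12 against 2803 in membrane pS6, 2 against 22 in cytosolic pS6, 1 against 2542 in membrane Camk2a, 0 against 22 in cytosolic Camk2a, 0 against 1022 in membrane Input and 0 against 35 in cytosolic Input, and gave 1 interaction against 0 in cytosolic Input. DESeq2 called 457 against 287 for SD in membrane pS6, and for CFC 50, 56 and 79 in cytosolic pS6, Camk2a and Input. With low counts kept, SD calls in cytosolic Input were 322 against 506, and CFC calls 14 in cytosolic Camk2a and 20 in cytosolic Input. Low counts also raised fraction calls to 13360 against 6305 in pS6 and 10437 against 6025 in Camk2a, and capture calls to between 6812 and 9289, against 1855 to 5137. Adjusted p alone gave 12904 to 15257 in the fraction and capture comparisons. The replicate block gave 43 against 10 genes in membrane and 392 against 98 in cytosolic libraries for the SD difference between pS6 and Camk2a, and changed no other member's call than that of Idi1 above. Idi1, at 19 to 180 counts, is limited by depth.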
